A study of Mus musculus with 22 samples.

Results

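The nuclear-encoded genes of oxidative phosphorylation were taken from a Drop-seq count table of mouse hippocampus as every gene whose symbol starts with Nduf, Uqcr, Atp5 or Cox4 to Cox8, or is Sdha, Sdhb, Sdhc or Sdhd. The rule reads names only and uses no measured value. It found 90 of the 13685 genes in the table: 36 genes of complex I, 7 complex I assembly factors (the Ndufaf genes), 2 genes of the Ndufa4 family, 4 of complex II, 8 of complex III, 16 of complex IV and 17 matched by the Atp5 prefix of complex V. Atp5sl and Atp5s carry that prefix in this annotation, and membership here rests on the name. The table held 0 genes with the mitochondrial prefix mt-, so the subunits encoded in mitochondrial DNA were not analysed here.

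Drop-seq pairs single cells with barcoded beads in droplets and reads the 3′ end of each transcript, so that counts can be assigned to cells. Per the labels, a set number of beads was amplified in each tube, and the strain reads Fvb/B6 for all animals. The rTg4510 mouse carries a tetracycline-operator transgene for human tau with the P301L mutation, and a Camk2a-driven transactivator (tTA), which limits tau expression to forebrain excitatory neurons. The 22 animals formed 6 groups: 5 old WT at 32 to 40 weeks, 4 old rTg4510 at 32 to 38 weeks, 4 young WT at 5 to 6 weeks, 3 young rTg4510 at 4 to 5 weeks (ages from the sample labels; the design text gives 2 to 4 weeks for young animals), 3 old P301L at 41 to 48 weeks and 3 old rTta at 33 weeks. The names P301L and rTta point to the tau responder without the transactivator and to the transactivator without the responder; no label states this in full.

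Oxidative phosphorylation is the stepwise transfer of electrons along complexes I to IV of the inner mitochondrial membrane, which pumps protons that then drive ATP synthesis by complex V. Complex I accepts electrons from NADH and complex II from succinate, complex III passes them to cytochrome c, and complex IV gives them to oxygen. Most subunits are encoded in the nucleus, and several have paralogs that are used in particular tissues, such as heart and muscle, lung or testis. In brain, neurons are known for a high demand for this pathway, and many of its genes share promoter motifs of NRF1, ETS-family factors, YY1 and the oestrogen-related receptors.

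Promoter sequences are shown for complex IV isoform pairs that had a window and are described by cell class below, and for 2 subunits whose windows held the searched motifs. RefSeq (GRCm38.p6) gave a window of 250 bases before to 50 bases after the start for 75 of the 90 genes. The 120 bases before the start are printed 5′ to 3′ on the gene's strand, with a motif found on either strand in capitals.
Cox6b1, the widespread subunit 6B, chr7:30626115-30626234, minus strand: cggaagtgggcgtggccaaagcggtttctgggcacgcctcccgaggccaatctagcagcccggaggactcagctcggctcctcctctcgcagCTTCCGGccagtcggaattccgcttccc
Cox6b2, its testis-type isoform, chr7:4753095-4753214, minus strand: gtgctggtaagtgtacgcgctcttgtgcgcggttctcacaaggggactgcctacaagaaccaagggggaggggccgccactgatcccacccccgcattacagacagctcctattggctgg
Cox7a2, the widespread subunit 7A, chr9:79759854-79759973, minus strand: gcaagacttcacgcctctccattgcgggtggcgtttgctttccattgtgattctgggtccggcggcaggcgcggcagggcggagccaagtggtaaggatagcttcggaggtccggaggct
Cox7a1, its heart and muscle isoform, chr7:30184051-30184170, plus strand: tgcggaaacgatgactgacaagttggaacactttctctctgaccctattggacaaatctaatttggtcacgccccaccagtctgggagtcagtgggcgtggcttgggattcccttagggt
Cox6a1, the widespread subunit 6A, chr5:115348959-115349078, minus strand: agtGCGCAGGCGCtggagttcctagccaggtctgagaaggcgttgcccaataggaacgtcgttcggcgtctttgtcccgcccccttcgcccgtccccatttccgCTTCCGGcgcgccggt
Atp5g3, 1 of the genes for the c subunit of ATP synthase, chr2:73911327-73911446, minus strand: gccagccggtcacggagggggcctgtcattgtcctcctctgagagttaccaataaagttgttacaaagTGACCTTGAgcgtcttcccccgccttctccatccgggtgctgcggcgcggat

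The capitals mark an ETS match in Cox6b1, an NRF1 and an ETS match in Cox6a1, and an oestrogen-related receptor (ERR) match in Atp5g3. The motifs searched on both strands were GCGCA and GCGC with 1 base N between them for NRF1, CCGGAAG for ETS factors, TCAAGGTCA for ERR and AAGATGGCG for YY1, and none of them contains another. The NRF1 motif stood in 18 of the 75 windows (24.0%), against 4.78% of 27025 RefSeq windows of the same length and 10.06% of the 10154 windows of genes in the table. The ETS motif stood in 16 (21.3%, against 9.12% and 16.84%), the YY1 motif in 7 (9.3%, against 1.49% and 3.02%) and the ERR motif in 2 (2.7%, against 0.41% and 0.26%). At least 1 of the 4 motifs was found in 36 windows (48.0%), against 14.4% and 27.19%. Of the pairs printed, Cox6b2, Cox7a1 and Cox7a2 held no capital letters, which says only that these letters are not in the 120 bases shown.

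The animals gave 780831 to 6039656 counts each, and 27198 of 30500 barcodes with at least 300 counts were kept as cells, with a median of 638 to 2021 counts per animal. Of 30244 distinct barcode sequences, 219 occurred in 2 or more animals. Cells were clustered without the 90 genes and without the other energy-metabolism genes listed for comparison, so that no gene compared here formed a cluster. A cluster was named from at least 3 markers of 1 class (the names stand for neuron-like, astrocyte-like cells and so on): 25810 cells in 14 clusters were named, and 1388 cells (5.1%) in 9 clusters stayed unnamed. In 4290 of the named cells, the markers of some other class together had more counts than those of the assigned class. In excitatory neurons, counts for Mapt, the tau gene, reached 1367 to 1819 counts per 1000000 (CPM) in rTg4510 animals and 460 to 646 in all others. Wdr60, a gene at the site where tTA is inserted, was at 58.8 CPM in P301L replicate 3, against 87.4 and 148 CPM in the other P301L animals. It was at 53.1 to 69.7 CPM in old rTg4510 and 31.6 to 47.1 in rTta. The replicate 3 library thus lay within the range of old rTg4510 but above all rTta animals, and P301L results are also given without it. The zeros of the table split the animals into 2 sets, which no label names: 270 genes have no count in any P301L or rTta animal and 801 have none in any of the other 16, so a difference of P301L or rTta from WT or rTg4510 cannot be told apart from one between the sets.

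Choroid plexus cells, which secrete cerebrospinal fluid, had by far the highest share of their counts on these genes. The summed level of the 90 genes was 57196 to 86558 CPM in the 5 animals with at least 20 choroid plexus cells. In WT animals of both ages, interneurons followed with 35662 ± 4628 CPM (SD, n = 8), then astrocytes with 32766 ± 5693 (n = 9), excitatory neurons with 30746 ± 4451 (n = 9), fibroblasts at a mean of 30298 (n = 2) and mural cells with 29730 ± 7176 (n = 7). Lower means were found in oligodendrocyte precursors (25700 ± 5186 CPM, n = 9), endothelial cells (24463 ± 4058, n = 9), oligodendrocytes (22622 ± 5140, n = 9) and microglia (17661 ± 6029, n = 9). Every choroid plexus value lay above every value of the other classes, while each other class overlapped its neighbours in this order. Within WT animals that had both classes, the sum was higher in excitatory neurons than in microglia in 9 of 9 higher in interneurons than in excitatory neurons in 7 of 8, and lower in excitatory neurons than in astrocytes in 7 of 9. A CPM is a share of a cell's counts, so fewer transcripts of these genes and more of others cannot be told apart. Malat1, a nuclear RNA, was at 3898 to 4539 CPM in choroid plexus cells, below its level in microglia of the same animals (16033 to 26772 CPM), and its part in the difference was not tested.

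**Figure D1:**
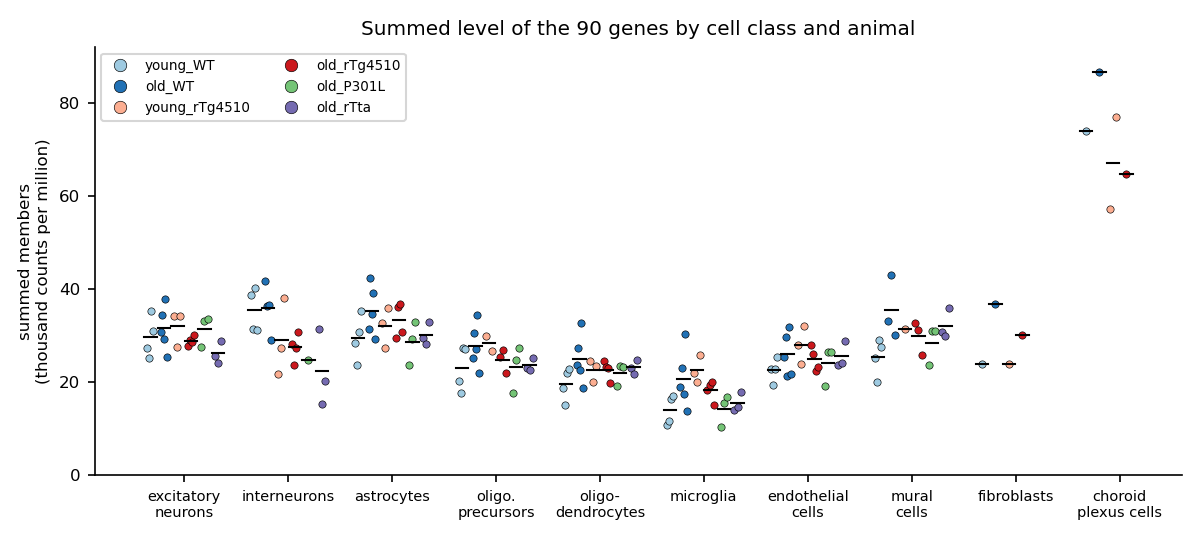
Summed level of the 90 genes in CPM (vertical axis) for each cell class (horizontal axis), with a point per animal coloured by group and a bar at the mean of each group. The 5 choroid plexus values, 57196 to 86558, sit above all other points, and microglia have the lowest mean.

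The make-up of that sum by complex was alike in all classes. Complex I took 32.4 to 37.5% of the members' counts, complex IV 25 to 28.4%, complex V 19.3 to 22.4%, complex III 9.7 to 11.1% and complex II 2.2 to 3.0%. The Ndufa4 family took 2.5 to 4.6% and the complex I assembly factors 0.6 to 1.7%. Cox4i1, the largest nuclear subunit of complex IV, had the most counts of all (98785), and its level in WT animals was 1596 ± 366 CPM in excitatory neurons, 1884 ± 491 in astrocytes and 1142 ± 432 in microglia. Ndufa4, first assigned to complex I and later found in complex IV, was at 1215 ± 184 CPM in excitatory neurons against 560 in oligodendrocytes and 553 in microglia. Atp5b, the catalytic β subunit of ATP synthase, was at 876 ± 168 CPM in excitatory neurons and 363 ± 129 in microglia. Among the other complexes, Ndufa13 (complex I), Uqcrq (complex III) and Sdhb, the iron-sulphur subunit of complex II, led with 523, 610 and 307 CPM in excitatory neurons. The widespread isoforms Cox6a1, Cox6b1, Cox7a2 and Cox8a, all complex IV subunits, were at 1002.5, 748, 729 and 1014 CPM in excitatory neurons and 688, 474, 391 and 658 in microglia. In choroid plexus cells the same genes were higher: Cox8a was at 3155 CPM, Cox6a1 at 2426, Cox4i1 at 4740, Ndufa4 at 3652, Atp5b at 2246 and Ndufa13 at 1688, while Sdhb was at 480 against 307. The CPM values compare 1 gene between classes, and 3′-end counts allow no order of genes by transcript number to be read with certainty.

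**Figure D2:**
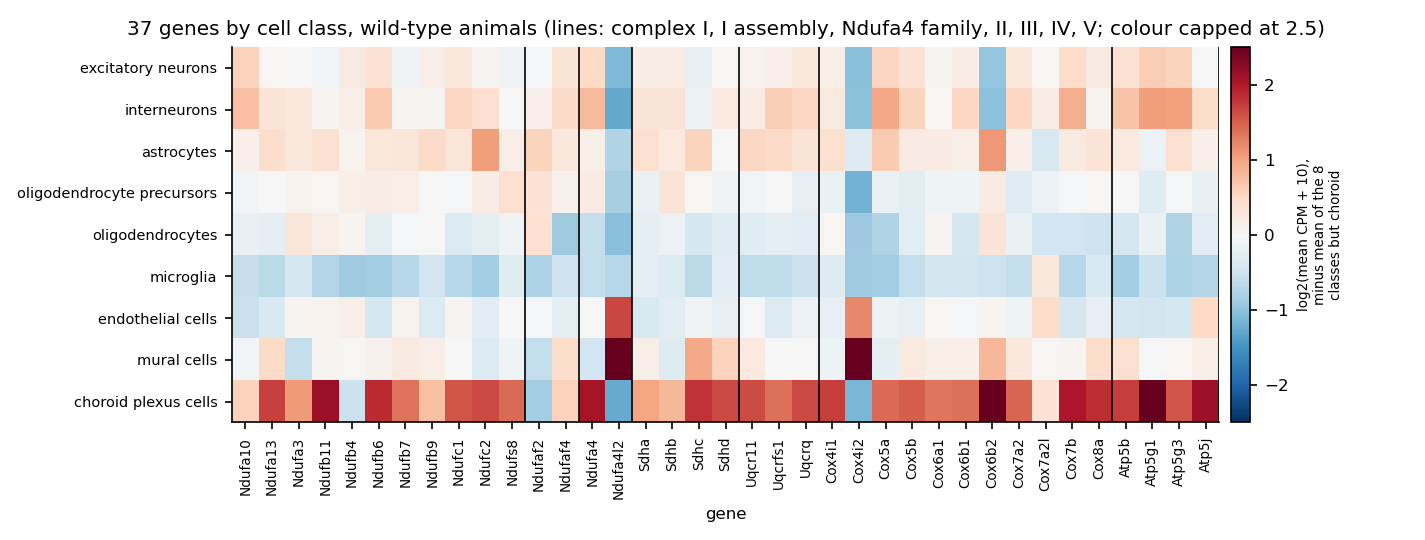
Mean level of the 37 genes named in the text that passed the low-count filter (columns, by complex) in WT animals for each cell class (rows), coloured as log2 of the mean CPM plus 10, minus its mean over the 8 classes other than choroid plexus cells, with the colour capped at 2.5. Most genes are red in choroid plexus cells and blue in microglia, while Cox4i2 and Ndufa4l2 stand out in mural cells.

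The 79 genes that passed the low-count filter were compared between classes of the 9 WT animals, with the animal as a term. Most were higher in excitatory neurons than in microglia: 61 of 79 were higher and 1 was lower in edgeR's quasi-likelihood test at a Benjamini-Hochberg adjusted p below 0.05, where 56.9% of the 7532 genes tested were called (30.7% higher and 26.1% lower). The median difference of the members was 0.62 on the log2 scale against 0.09 over all genes tested. By complex, 28 of 35 complex I genes, 7 of 8 of complex III, 10 of 13 of complex IV and 12 of 13 of complex V were higher, and 0 of 4 of complex II were called. Cox5a, a core-binding subunit of complex IV, was at 703 CPM in excitatory neurons and 261 in microglia, a log2 difference of 1.23 ± 0.15 (SE, edgeR quasi-likelihood, adjusted p = 8e-12). Atp5g3 (575 and 220 CPM) differed by 1.17 ± 0.15 (adjusted p = 1.8e-11) and Atp5g1 by 1.23 ± 0.26 (adjusted p = 2.7e-05), and both encode the same mature c subunit of the ATP synthase ring. Cox7a2l, a factor in respiratory supercomplex assembly, was the 1 gene called lower, by 0.42 ± 0.15 (adjusted p = 0.0093). Its call was lost with total-count scaling (adjusted p = 0.2) and without old WT replicate 3 (0.067) or replicate 4 (0.064).

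Against astrocytes the direction was the other one. In excitatory neurons 49 of 79 genes were lower and 1 was higher (edgeR, 58.9% of all genes called, 27.2% higher and 31.6% lower), with a median of -0.43 against -0.07 over all genes. With total-count scaling in place of TMM, 12 were higher and 18 lower, with medians of -0.06 for the members and 0.29 for all genes, so the count depends on the scaling. Without old WT replicate 2 it was 27 genes, without old WT replicate 3 it was 29 and without young WT replicate 4 it was 31, in place of 50 called. Ndufc2, a subunit of the membrane arm of complex I, was at 762 ± 219 CPM in astrocytes and 382 ± 102 in excitatory neurons (log2 difference -1.35 ± 0.13, edgeR adjusted p = 1.4e-16). Atp5g1 was the 1 gene called higher in neurons, with 128 against 72.0 CPM (log2 difference 0.58 ± 0.20, adjusted p = 0.0084).

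Against oligodendrocytes, the myelin-forming cells, 12 genes were higher and 12 lower (64.6% of all genes called, 29.9% higher and 34.8% lower), with a median of 0.03. Total-count scaling turned this into 58 higher and 3 lower, with medians of 0.48 for the members and 0.38 for all genes. Higher in excitatory neurons under TMM were Ndufaf4, a complex I assembly factor (117 against 44.1 CPM, log2 difference 0.98 ± 0.19, edgeR adjusted p = 3e-06), Atp5g3 (0.90, adjusted p = 8.4e-10) and Cox5a (0.89, adjusted p = 4.5e-09). Lower were Cox6b2 (-2.80, adjusted p = 7.5e-11), the assembly factor Ndufaf2 (-0.98, adjusted p = 2.2e-07) and the complex I subunit Ndufa3 (-0.73, adjusted p = 1.2e-07). Ndufa3 overlaps the gene Tfpt on the opposite strand. Against endothelial cells, 27 genes were higher and 11 lower (62.4% of all genes called, 28.3% higher and 34.2% lower), or 47 and 8 with total-count scaling, with a median of 0.23 against -0.10. Ndufa10, a complex I subunit, was among the higher ones, with a log2 difference of 0.99 (edgeR adjusted p = 3.7e-09). The largest lower differences were those of the paralogs Ndufa4l2 (-4.91 ± 0.44, adjusted p = 1.2e-18), Cox4i2 (-4.70 ± 0.47, adjusted p = 2.6e-16) and Cox6b2 (-2.28, adjusted p = 2e-05), which are described with the isoforms. Within single classes, Cox4i2 and Cox6b2 passed the low-count filter in 1 class each and Ndufa4l2 in 2. They had 9, 32 and 14 counts in WT excitatory neurons. Such genes are tested through the classes where they are high, so their calls and p between classes, here and below, are given as a description.

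Interneurons and excitatory neurons were closer to each other. In WT animals 18 of 79 genes were higher in interneurons and 0 lower (28.5% of all genes called, 12.6% higher and 15.9% lower), with a median of 0.22 against -0.05. Cox7b, a small subunit of complex IV, was higher by 0.53 (edgeR quasi-likelihood, adjusted p = 0.00079), Uqcrfs1, the Rieske iron-sulphur protein of complex III, by 0.50 (adjusted p = 0.0034) and Atp5g1 by 0.49 (adjusted p = 0.018). The count was 7 without young WT replicate 1, 9 without old WT replicate 2 or young WT replicate 4, 10 without old WT replicate 1 and 11 without young WT replicate 2. Over all 22 animals 2 genes were higher and 7 lower. The ratio of the summed level in interneurons to that in excitatory neurons was above 1 in 7 of 8 WT animals, 2 of 4 old rTg4510, 1 of 3 young rTg4510, 1 of 3 rTta and 0 of 1 P301L animals.

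Excitatory neurons themselves were not uniform. In their 4 clusters the median summed level over animals was 32164 CPM (cluster 0, with 3 of 10 markers of CA pyramidal neurons), 30127 (cluster 2, with 8 of 9 dentate granule markers), 13520 (cluster 6) and 41060 (cluster 11). Malat1 was at a median of 84813 CPM in cluster 6 and 19192 in cluster 11, and cells of cluster 11 had a median of 497 counts. Cluster 11 made up 4.5% of the excitatory neurons of young WT animals, 21.0% in young rTg4510, 17.6% in old rTg4510, 37.7% in old WT, 40.1% in P301L and 42.0% in rTta. A comparison of excitatory neurons between groups therefore sets different mixtures of these clusters side by side. In WT animals with at least 20 cells of both, the sum in cluster 6 lay below that in microglia except in old WT replicates 2 and 5. Cluster 11 lay above astrocytes except in old WT replicate 2. The contrasts of excitatory neurons with other classes therefore describe this mixture and need not hold for each cluster.

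Paralogs of widespread subunits marked the vessel wall. Cox4i2, an isoform of subunit 4 known from lung, was at 399 ± 254 CPM in WT mural cells (n = 7), the contractile cells and pericytes of vessels, 42.2 ± 27.0 in endothelial cells and 1.07 in excitatory neurons. Per animal, mural Cox4i2 was 437, 235 and 520 CPM in old WT, 869, 426, 138 and 169 in young WT, and 634, 402 and 203 in old rTg4510. It was 589, 530 and 565 CPM in P301L, 770, 840 and 728 in rTta and 446 in the 1 young rTg4510 animal. The lowest mural value lay above the highest endothelial value of any animal, 108 CPM. Mural cells exceeded endothelial cells by 3.10 ± 0.37 on the log2 scale (edgeR quasi-likelihood, adjusted p = 1.5e-11, given as a description for the reason above). Of the WT counts for both subunit 4 isoforms, Cox4i2 took 21.7% in mural cells (exact 95% interval 17.8 to 26%, which covers counting error only), 2.54% in endothelial cells and 0.0655% in excitatory neurons, and 0 of 1132 counts in oligodendrocyte precursors (upper limit 0.325%). Excitatory neurons were also below astrocytes, with a log2 difference of -2.85 ± 0.57 (adjusted p = 6.1e-06).

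Ndufa4l2, a paralog of Ndufa4 known for its rise in low oxygen, was also highest on average in mural cells, although its endothelial values of 0 to 270 CPM overlapped the mural ones. It was at 413 ± 277 CPM in WT mural cells, 70.1 ± 80.7 in endothelial cells and 1.73 in excitatory neurons (mural against endothelial log2 difference 2.50 ± 0.38, edgeR adjusted p = 4e-08). Its share of the counts of both genes was 38.1% in WT mural cells (31.9 to 44.6%, and 11.3 to 85.7% across animals) and 61.7% over mural cells of all animals. Per animal, mural Ndufa4l2 was 437, 156 and 557 CPM in old WT, 982, 1756 and 951 in P301L, and 1364, 1111 and 1278 in rTta. The P301L and the rTta animals all lay above all WT animals, whose highest value was 921 CPM in young WT. Both groups belong to the same set of animals by the zeros of the table, so genotype and set cannot be told apart here. The difference of rTta from old WT, 1.75 ± 0.46 on the log2 scale, was not called (edgeR adjusted p = 0.076, and 0.016 to 0.042 under the 3 alternatives that called it). Ndufa4l2 overlaps Shmt2 and Cox4i1 overlaps Emc8 on the opposite strand, and Cox4i2 has no such neighbour.

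The summed level of the 90 genes was also higher in mural than in endothelial cells, in 7 of 7 WT animals and in 17 of 17 of all animals. Of the 79 genes tested, 7 were higher and 4 lower (19.5% of all genes called, 5.71% higher and 13.8% lower), or 15 and 1 with total-count scaling, with a median of 0.07 against -0.26 over all genes. After these paralogs the largest difference among the genes higher in mural cells was that of Sdhc, a membrane anchor of complex II, at 324 against 154 CPM (0.85 ± 0.23, edgeR adjusted p = 0.0036), and its call was lost without young WT replicate 3 (0.064) and without the 5 animals with choroid plexus cells (0.073). Lower were Ndufa3 (-0.94, adjusted p = 0.00032), Ndufa4 (-0.75, adjusted p = 0.0026) and Atp5j, coupling factor 6 of ATP synthase (-0.71, adjusted p = 0.0028). The last 2 calls were lost with total-count scaling (0.094 and 0.12), that of Atp5j also without young WT replicate 4 (0.054), and Atp5j overlaps Gabpa on the opposite strand.

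**Figure D3:**
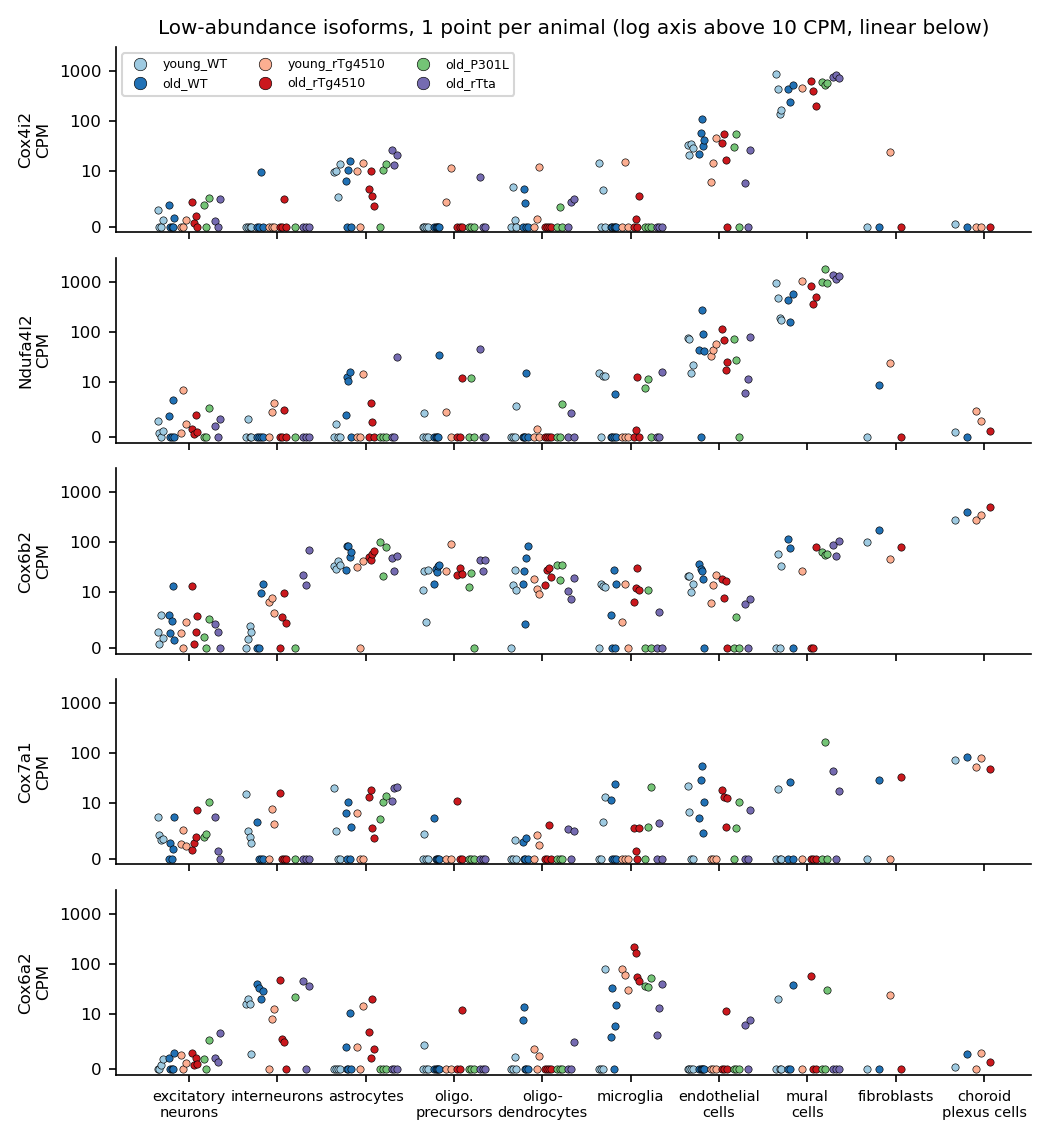
Level in CPM of low-abundance isoforms (panels, vertical axis logarithmic above 10 and linear below) in each cell class (horizontal axis), with a point per animal coloured by group. Cox4i2 and Ndufa4l2 are highest in mural cells, Cox6b2 and Cox7a1 in choroid plexus cells, and Cox6a2 is seen in microglia and interneurons.

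Choroid plexus cells, fibroblasts and astrocytes were among the classes that held another isoform. Cox6b2, known from testis, was at 397 CPM in choroid plexus cells of the old WT animal, 276 in young WT, 513 in old rTg4510, and 281 and 351 in young rTg4510. It was at 50.7 ± 22.4 CPM in WT astrocytes and 4.43 ± 3.84 in excitatory neurons (log2 difference -3.74 ± 0.37, edgeR adjusted p = 1.1e-16). In astrocytes of old WT animals it was 28.5, 86.3, 83.8, 52.2 and 63.2 CPM, where the fourth value is that of the replicate with 60 choroid plexus cells. The part of choroid plexus RNA in these values was not tested. Its share of subunit 6B counts in WT animals was 14.7% in choroid plexus cells (13.7 to 15.8%), 16.1% in fibroblasts (10.8 to 22.8%, n = 2), 6.05% in astrocytes (4.79 to 7.52%), 5.67% in mural cells (2.86 to 9.92%), 4.17% in oligodendrocytes and 0.48% in excitatory neurons. Cox7a1, the heart and muscle subunit 7A, was at 84.9, 48.7, 72.2, 52.4 and 78.3 CPM in the 5 choroid plexus samples and passed the low-count filter in no class compared between groups. In Atp5g1, choroid plexus cells had 211 to 630 CPM, and its share of c-subunit counts in WT animals was 26% there, 18.4% in oligodendrocytes, 15.6% in excitatory neurons and 10.6% in astrocytes.

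The 5 animals with choroid plexus cells were 1 old WT, 1 old rTg4510, 1 young WT and 2 young rTg4510, and these cells formed 5.0 to 34.02% of their cells. Over all cells the 90 genes summed to 27166 to 49879 CPM in these animals and 22656 to 33294 in the other 17. Without the choroid plexus cells the same 5 animals had 24097 to 35509 CPM. Choroid plexus markers were also counted in their microglia, at 152 to 1620 CPM against 0 to 255 CPM in microglia of the other animals, and calls between groups that were lost without these 5 animals are named.

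Between old rTg4510 and old WT animals, 1 of 603 pairs of a gene and a class was called (0.493% of all pairs tested, 0.374% higher and 0.119% lower), and 37 had an unadjusted p below 0.05. The called gene was Cox6a2, the heart and muscle isoform of subunit 6A, in microglia, where 3.52% of all genes were called. It was at 213, 165, 55.2 and 44.2 CPM in old rTg4510 (78, 120, 9 and 8 counts) and 5.9, 33.1, 0, 7.9 and 14.9 CPM in old WT (1, 1, 0, 1 and 1 counts). The groups did not overlap. The gene passed the low-count filter through the groups in which it is high, since old WT holds 4 counts in 5 animals, so the call and its p are given as a description. The fitted difference was 3.86 ± 0.75 on the log2 scale (edgeR quasi-likelihood, adjusted p = 0.0014; 8.5e-09 to 0.024 over the alternatives that gave a value). Without the filter it was 4.00 (adjusted p = 8.5e-09), and in a fit of these groups alone the gene did not pass the filter.

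In microglia of the other groups, Cox6a2 overlapped both of these in young rTg4510 and young WT animals. P301L animals overlapped only old rTg4510, and rTta animals only old WT. It was 79.2, 60.3 and 30.4 CPM in young rTg4510, 0, 0, 0 and 78.5 in young WT, 35.5, 33.7 and 51.9 in P301L and 6.2, 12.9 and 39.0 in rTta. The difference of old rTg4510 from rTta was also called (2.91 ± 0.69, edgeR adjusted p = 0.014), and the call was lost without old rTg4510 replicate 1 (0.07) or 2 (0.052), or rTta replicate 1 (0.15) or 2 (0.13). Cox6a2 counts pooled over the animals of a group were higher in old rTg4510 than in old WT in both microglia clusters. In cluster 12, led by Ccl4, Ccl3 and Il1b, there were 142 counts in 483 old rTg4510 cells (156 CPM) against 3 counts in old WT (12.6 CPM). In cluster 16, led by P2ry12, there were 73 counts in 401 cells (138 CPM) against 1 (5.2 CPM). Pooled values do not show whether the animals agree. In young rTg4510 they were 121 CPM in cluster 12 and 19.0 in cluster 16. Interneurons, the other class with Cox6a2, had 39.6, 32.0, 19.9 and 29.0 CPM in old WT and 47.0, 5.5, 5.0 and 0 in old rTg4510. In the microglia, the 11 interneuron markers summed to 257 to 743 CPM in old rTg4510 and 255 to 772 in old WT, so these ranges overlapped.

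The position of Cox6a2 limits this result. In GENCODE vM21 (GRCm38) it lies at chr7:128205435-128206387 on the minus strand, wholly inside Itgad, an integrin gene on the plus strand at chr7:128154376-128223816 that is no row of the table. Whether counting used the strand is not given in the sources used here, so counts from Cox6a2 and from Itgad cannot be told apart. Of the neighbouring integrin genes, Itgam was at 582 CPM in microglia of old rTg4510 and 993 in old WT (log2 difference -0.63, edgeR adjusted p = 0.35). Of the 89 genes with coordinates, 32 overlap a gene on the opposite strand, 25 of them a protein-coding one.

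**Figure D4:**
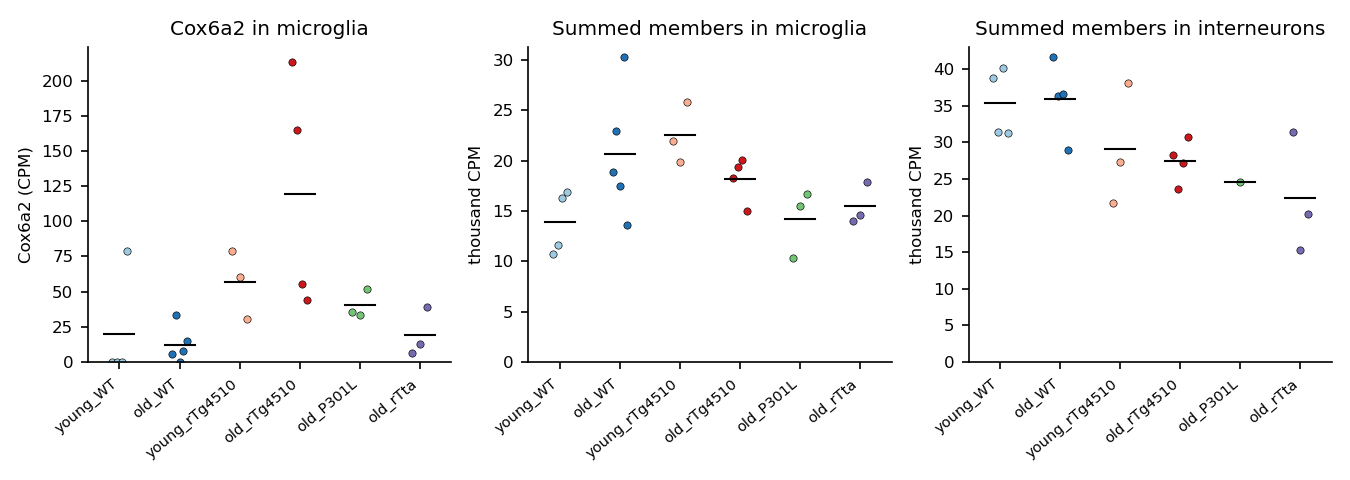
Level of Cox6a2 in microglia, and summed level of the 90 genes in microglia and in interneurons (panels, CPM), by group, with a point per animal and a bar at the mean. Cox6a2 is at 44.2 to 213 in old rTg4510 and 0 to 33.1 in old WT, and the interneuron means are highest in the WT groups.

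At the young age, 0 of 536 pairs were called between rTg4510 and WT animals by edgeR (0.0311% of all pairs, 0.0259% higher and 0.00519% lower; 46 with an unadjusted p below 0.05; 1 called by DESeq2). The members of microglia nevertheless lay to 1 side: 71 of 74 estimates were positive, with a median of 0.58 on the log2 scale. Most were also positive in endothelial cells (66 of 75), oligodendrocyte precursors (65 of 73) and oligodendrocytes (60 of 76), with medians of 0.13 to 0.27. Excitatory neurons had 52 of 82 positive, astrocytes 49 of 77 and interneurons 12 of 79. The sums in microglia were 21965, 19903 and 25819 CPM in young rTg4510 and 10777, 11664, 16346 and 16881 in young WT, without overlap. They came from 148, 45 and 21 cells in young rTg4510 and 74, 95, 105 and 53 in young WT. The young rTg4510 animals with 45 and 21 microglia and the young WT animal with 105 also held choroid plexus cells. Choroid plexus markers in their microglia were at 859, 152 and 1058 CPM, and their part in the difference was not tested. Malat1 in the same microglia was 24898, 17628 and 19653 CPM in young rTg4510 and 49859, 48999, 26772 and 26369 in young WT, and neuron markers summed to 5718 to 12910 against 2734 to 6949 CPM, whose part in the difference was not tested. Ndufc1, a complex I subunit, had the smallest p there (261, 301.3 and 577 against 178, 112, 107 and 131 CPM; 1.34 ± 0.38) and was not called (edgeR adjusted p = 0.14).

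Age was compared within each genotype. Between old and young WT animals, 2 of 603 pairs were called (0.619% of all pairs, 0.322% higher and 0.297% lower), both in oligodendrocytes, where 4.41% of all genes were called. Ndufb9, a complex I subunit, was at 573, 621, 509, 708 and 542 CPM in old WT and 278, 219, 422 and 474 in young WT, without overlap (0.63 ± 0.19, edgeR adjusted p = 0.045). Ndufb4, another complex I subunit, was at 132, 239, 222, 153 and 73.0 CPM in old WT and 107, 50.3, 51.2 and 99.1 in young WT, and the groups overlapped (1.10 ± 0.31, adjusted p = 0.029). Both calls were lost without old WT replicate 2, young WT replicate 2 or the 5 animals with choroid plexus cells, that of Ndufb4 also without old WT replicate 3 or young WT replicate 3, and that of Ndufb9 also without old WT replicate 4 or young WT replicate 1. With a term for the range of animal numbers, Ndufb9 was also not called (0.49, edgeR adjusted p = 0.32). All old WT and rTg4510 animals have lower numbers in their titles than all young ones. That fit therefore sets old animals of 1 range against young animals of another, and age and range cannot be told apart. In microglia 69 of 74 estimates were positive, with a median of 0.46 and 0 called, and the sums of 13661 to 30309 CPM in old WT and 10777 to 16881 in young WT overlapped. Malat1 in these microglia was 16033 to 41638 CPM in old WT and 26369 to 49859 in young WT, and its part was not tested. Most estimates were positive in the other classes too, with 66 of 77 in astrocytes, 55 of 67 in mural cells and 63 of 76 in oligodendrocytes. Endothelial cells had 58 of 75 positive, oligodendrocyte precursors 58 of 73, excitatory neurons 53 of 82 and interneurons 44 of 79. Between old and young rTg4510 animals 0 of 536 pairs were called (0.456% of all pairs, 0.249% higher and 0.207% lower; 11 unadjusted; 0 by DESeq2). The smallest p values there were those of 3 complex I subunits, Ndufa10 in astrocytes (0.85 ± 0.29, edgeR adjusted p = 0.5), Ndufs8 in interneurons and Ndufb7 in oligodendrocyte precursors (adjusted p = 1 for both). With a term for the range of animal numbers, Ndufs8 was called (-1.58, edgeR adjusted p = 0.044), in a fit with the same limit.

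The genotype difference itself was then compared between ages, and 0 of 536 pairs were called (0.0311% of all pairs, 0.0104% higher and 0.0207% lower; 37 unadjusted; 0 by DESeq2). The smallest p was that of Ndufc1 in microglia, whose genotype difference was lower at the old age by 1.68 ± 0.48 on the log2 scale (edgeR adjusted p = 0.13). Its adjusted p was 0.044 with total-count scaling, 0.036 when old WT replicate 5 was left out and 0.048 when old rTg4510 replicate 3 was. The comparisons by age and genotype share animals, so their counts are not independent of each other.

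**Figure D5:**
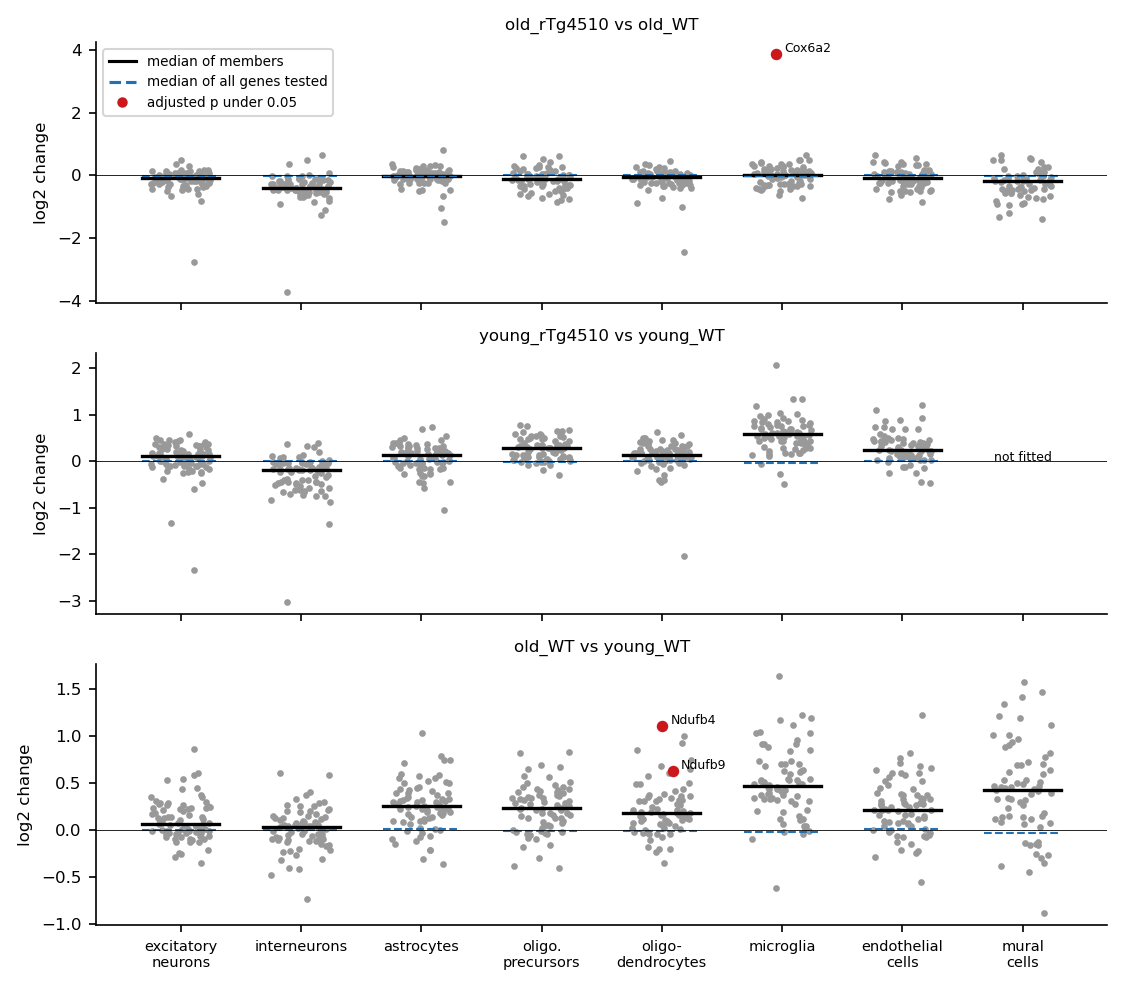
Log2 difference of each gene (points, vertical axis) within each cell class (horizontal axis) for old rTg4510 against old WT, young rTg4510 against young WT and old against young WT (panels), with called genes in red, the median of these genes as a solid line and that of all genes tested as a dashed line. The solid lines reach 0.58 and 0.46 in microglia of the middle and bottom panels and -0.41 in interneurons of the top one.

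In interneurons the members leaned down in old rTg4510 animals with no gene called. The median difference from old WT was -0.41, 5 of 79 estimates were positive and 12 had an unadjusted p below 0.05. Their sums were 28251, 23589, 27221 and 30786 CPM in old rTg4510 and 41716, 36310, 36602 and 28978 in the 4 old WT animals with at least 20 interneurons, and 1 WT value lay within the rTg4510 range. Malat1 in the same interneurons was 37877, 38574, 19422 and 24278 CPM in old rTg4510 and 17547, 10234, 15217 and 22297 in old WT, and its part in the difference was not tested. Against the same WT animals, rTta animals had a median of -0.72, with 8 of 79 positive, 34 unadjusted and 0 called. The rTta sums were 31474, 15358 and 20190 CPM, from 36, 25 and 24 interneurons, and the first of them lay within the old WT range. The smallest p values were those of Uqcr11, a small subunit of complex III (-1.49, edgeR adjusted p = 0.15), and Ndufb11 of complex I (-1.58, adjusted p = 0.16). The lean was not confined to interneurons: against old WT, 140 of 603 pairs were positive in rTta and 203 of 603 in old rTg4510. Excitatory neurons had 12 of 82 positive in rTta and 23 of 82 in old rTg4510. Microglia had 12 of 74 and 41 of 74. Over all classes 0 of 603 pairs were called between rTta and WT (0.54% of all pairs, 0.28% higher and 0.26% lower; 87 unadjusted; 1 by DESeq2).

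Comparisons with P301L animals called 8 pairs in 3 comparisons. P301L animals were 41 to 48 weeks old and the other old animals 32 to 40, so genotype and age cannot be told apart here. Between old rTg4510 and P301L, 3 of 524 pairs were higher and 3 lower (1.16% of all pairs, 0.536% higher and 0.627% lower). Atp5g1 in excitatory neurons was at 62.5, 72.1, 66.2 and 117 CPM in old rTg4510 and 243, 319 and 183 in P301L, without overlap (-1.66 ± 0.28, edgeR adjusted p = 0.0039), and the call was lost without P301L replicate 2 (0.087) and in excitatory cluster 0 alone (0.11), but not without P301L replicate 3. In oligodendrocytes it was at 51.0, 38.2, 48.5 and 35.8 CPM against 133, 109 and 131 (-1.52 ± 0.33, adjusted p = 0.019), a call lost without any 1 of the P301L animals (0.054 to 0.12) and without old rTg4510 replicate 2 or 4. Ndufb4 in excitatory neurons was at 167, 106, 62.3 and 102 CPM against 257, 319 and 381 (-1.54 ± 0.33, adjusted p = 0.034), a call lost without any 1 of the P301L animals (0.07 to 0.17), without old rTg4510 replicate 2, 3 or 4, in excitatory cluster 0 alone (0.36), in excitatory neurons without clusters 6 and 11 (0.071) and without the 5 animals with choroid plexus cells (0.056). The groups of these 3 pairs did not overlap.

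The 3 higher pairs were in microglia. Cox7b was at 366, 383, 380 and 254 CPM in old rTg4510 and 151, 157 and 218 in P301L (1.12, edgeR adjusted p = 0.026), Ndufa10 was higher by 1.20 (adjusted p = 0.026) and Ndufb6 of complex I by 1.37 (adjusted p = 0.033). All 3 calls were lost without P301L replicate 1 or 2, that of Cox7b also without old rTg4510 replicate 1 or 2, that of Ndufa10 also without P301L replicate 3 or old rTg4510 replicate 3, and that of Ndufb6 also without old rTg4510 replicate 2 or 3. Without the 5 animals with choroid plexus cells, Ndufa10 (0.065) and Ndufb6 (0.11) were not called, and Ndufb6 overlaps Smim27 on the opposite strand. Against old WT, P301L animals had 1 lower and 0 higher of 524 pairs (0.843% of all pairs, 0.158% higher and 0.685% lower): Ndufa10 in microglia, at 53.2, 84.3 and 72.7 CPM against 123, 232, 198, 213 and 149 (-1.19 ± 0.36, adjusted p = 0.043). This call was lost without any 1 of the P301L animals (0.11 to 0.24), without old WT replicate 2, 3 or 4, and without the 5 animals with choroid plexus cells (0.19). Neuron markers in microglia summed to 916 to 1350 CPM in P301L, 1591 to 10881 in old rTg4510 and 2869 to 9560 in old WT, and their part in these results was not tested. Cluster 16 made up 74.7% of the microglia in P301L, 45.4% in old rTg4510, 48.6% in old WT and 59.9% in rTta. Comparisons of microglia with P301L therefore set different mixtures of clusters 12 and 16 side by side.

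Cox5b, the zinc-binding subunit of complex IV, was the 1 pair of 524 called between P301L and rTta, and it was lower in P301L (0.24% of all pairs, 0.132% higher and 0.108% lower). In microglia it was at 44.4, 39.3 and 125 CPM in P301L and 281, 245 and 234 in rTta (-1.95 ± 0.47, edgeR adjusted p = 0.034). The call was kept without P301L replicate 3 and lost without any 1 of the other 5 animals. Between old rTg4510 and rTta, 1 of 603 pairs was higher and 3 lower (0.74% of all pairs, 0.364% higher and 0.376% lower): Cox6a2 as above, Cox5b in microglia (-1.27, adjusted p = 0.048) and astrocytes (-1.23 ± 0.32, adjusted p = 0.043), and Atp5g1 in oligodendrocytes (-1.33, adjusted p = 0.036). Leaving out any 1 animal of either group ended the call of Cox5b in microglia (0.051 to 0.24), and all but old rTg4510 replicate 1 did so for Atp5g1 and all but replicate 4 for Cox5b in astrocytes, which was also not called without the 5 animals with choroid plexus cells (0.066). Astrocyte Cox5b was at 216, 148, 138 and 269 CPM in old rTg4510 and 479, 391 and 527 in rTta, without overlap. The comparisons with P301L, rTta and WT share their animals.

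The rest of the pathway was read from lists of other genes. Between excitatory neurons and microglia, 11 of 16 genes of pyruvate dehydrogenase and the citrate cycle and 11 of 13 of glycolysis were higher and 0 lower, among them Idh3a (1.47, edgeR adjusted p = 2.7e-08) and the neuronal enolase Eno2 (2.21, adjusted p = 1.3e-19). Of the genes for ATP export and uptake 7 of 12 were higher and 1 lower, the uncoupling protein Ucp2 (-3.79, adjusted p = 7.3e-17). Of the assembly factors outside the naming rule, 4 of 14 were higher and 2 lower, and of the electron carriers 5 of 9 higher and 2 lower, where 30.7% of all genes were higher and 26.1% lower. Against astrocytes (27.2% of all genes higher and 31.6% lower), 1 of 16 citrate cycle genes was higher and 7 were lower, such as citrate synthase, Cs (-1.44, adjusted p = 1.9e-15), and 4 of 13 glycolysis genes were higher and 6 lower, such as Aldoc (-4.68, adjusted p = 2.6e-22). Against oligodendrocytes (29.9% higher and 34.8% lower), 11 of 13 glycolysis genes and 6 of 16 citrate cycle genes were higher and 0 lower. Between groups, few were called, such as the lactate dehydrogenase subunit Ldhb in oligodendrocytes of rTta against WT animals (-1.70, edgeR adjusted p = 3.2e-05, with 1.64% of all genes called). Ldhb was also called higher than in rTta in P301L (1.24, adjusted p = 0.015, 0.664% of all genes) and in old rTg4510 (1.02, adjusted p = 0.045, 1.18%). Differences of rTta from WT or rTg4510 cannot be told apart from those between the sets of animals.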

How the data were processed

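Single-cell libraries of hippocampus from 22 mice were compared. The values are gene counts per cell barcode, deposited by the authors as whole numbers. Per the submitters' processing notes, bcl2fastq 2.18.0.12, STAR 2.2 and the mm10 build were used. The counting tool, its annotation, its use of strand, any cell filter and the collapsing of molecular identifiers are not given in the sources used here, and each could shift counts of overlapping or duplicated genes. Tests on counts between groups measure the spread between animals.

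From the counts, barcodes with at least 300 counts were clustered (scanpy 1.11.5, Leiden resolution 1) without the genes reported and without the comparison lists. Clusters were named where at least 3 markers of a class stood 2-fold above the rest. No doublet caller was run. Counts were summed per animal and class, for animals with at least 20 cells, and CPM is the count per 1000000 of all counts in that sum. Tests used edgeR 4.0.16 (TMM scaling, filterByExpr, quasi-likelihood, R 4.3.3), with Benjamini-Hochberg adjustment within a class over all genes and 1 fit of all groups per class, or within a contrast between classes, and a threshold of 0.05. The scripts were tested on simulated data. Ndufab1 is at 0 in 16 animals and passed the filter in 0 of 7 classes in a fit of the other 6. Of the 90 genes, 86 were tested in at least 1 class, 65 in all 8 and 4 in none (Atp5g2, Cox7a1, Cox7b2 and Ndufab1).

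The genes, the marker lists and the comparison lists were chosen with earlier results of these data known. Genes named were taken from the 3 called with the smallest adjusted p per comparison, class and direction, the 3 smallest unadjusted p where none was called, the 3 largest called differences per direction between classes, the isoform sets, and the highest member of each complex. Not every gene on these lists is named in the text. Alternatives were DESeq2 1.42.0, total-count scaling, no low-count filter, a fit of the compared groups only, a fit without robust estimation, a term for the range of animal numbers, minimums of 500 counts or 50 cells, resolution 0.5, clustering with the members, leaving out mixed cells or each animal, and, added after seeing the data, leaving out 5 animals or excitatory clusters. Exact binomial intervals are at 95%.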

Additional observations from a re-analysis of the deposited data

Results flagged for a closer look

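In 54 groups of 4 to 10 animals that were checked for a lone value, 3 held a sample far from the others, where chance gives about 1 in 20. Cox6a2 in microglia was at 78.5 CPM in young WT replicate 4, while the other 3 young WT animals were at 0. With those at 0, any count in replicate 4 would have been flagged, so the rate of 1 in 20 does not hold for it. Cox7b in microglia was at 254 CPM in old rTg4510 replicate 4, below the 366 to 383 CPM of the other 3 animals of that group. Ndufb6 in microglia was at 260 CPM in old WT replicate 4, above the 82.2 to 132 CPM of the other 4, and this animal was 1 of the 5 with choroid plexus cells, whose part in the value was not tested.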

How the results depend on the processing

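Counts of called pairs were small between groups, and 3 to 5 animals per group limit what could be called. Tests on the genes' named values kept their side of the threshold in 600 of 663 cases under other settings (7 newly called, 56 lost) and in 412 of 486 when 1 animal was left out (2 newly called, 72 lost), with 0 changes of direction. No paired analysis was possible because the labels give no replicate numbers shared between groups. A minimum of 50 cells gave no value for mural against endothelial cells, and a term for the range of animal numbers could be fitted only for the 5 comparisons of WT and rTg4510. In the comparisons of old with young animals, that term cannot separate age from range. Depth limits classes with few cells, and the cause of each change below was not tested.

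With DESeq2, the called pairs numbered 44 for excitatory neurons against oligodendrocytes, 37 for interneurons against excitatory neurons, 17 for mural against endothelial cells, 3 for P301L against rTta, 0 for P301L against WT, 1 for rTta against WT and 1 for young rTg4510 against WT. With total-count scaling they were 30 for excitatory neurons against astrocytes, 61 against oligodendrocytes, 5 for old against young WT and 1 for the interaction. Without the low-count filter they were 29 against astrocytes, 39 against oligodendrocytes, 5 for interneurons, 2 for P301L against WT, 5 for P301L against rTta, 1 for old against young WT, 11 for rTg4510 against rTta and 3 for rTta against WT. With at least 50 cells they were 32 against astrocytes, 44 against oligodendrocytes, 5 for interneurons, 0 for P301L against WT and 2 for P301L against rTta. With at least 500 counts they were 33 against astrocytes, 0 for P301L against WT, 0 for P301L against rTta, 2 for rTg4510 against rTta and 1 for rTta against WT. In all 22 animals they were 66 for excitatory neurons against endothelial cells, 54 against oligodendrocytes, 9 for interneurons and 27 for mural cells.

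In fits of only the groups compared they were 2 for P301L against WT, 7 for P301L against rTta, 0 for old against young WT, 0 for old rTg4510 against WT, 15 for rTg4510 against rTta and 2 for rTta against WT. Without robust estimation they were 2 for P301L against rTta and 1 for rTta against WT, with excitatory cluster 0 alone 2 and 1, at resolution 0.5 0 for old against young WT, with the range term 2 for old against young rTg4510, and without mixed cells 0 for P301L against WT. Without the 5 animals with choroid plexus cells they were 31 against astrocytes, 9 for interneurons, 7 for mural cells, 0 for P301L against WT, 4 for P301L against rTta, 0 for old against young WT and 1 for rTta against WT.

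Leaving out 1 animal gave 27 to 50 against astrocytes, 35 to 55 against endothelial cells, 57 to 70 against microglia, 21 to 30 against oligodendrocytes, 7 to 19 for interneurons, 9 to 11 for mural cells and 183 to 219 over all class contrasts. Between groups it gave 0 to 4 for P301L against WT (4 without old WT replicate 5), 0 to 3 for P301L against rTta (3 without P301L replicate 3), 0 to 5 for old against young WT (5 without old WT replicate 1 or 5), 0 to 6 for rTg4510 against P301L (0 without P301L replicate 2 and 3 without P301L replicate 3), 0 to 3 for rTg4510 against rTta (0 without old rTg4510 replicate 2, rTta replicate 1 or rTta replicate 2), 0 to 1 for rTta against WT, 0 to 1 for young rTg4510 against WT, 0 to 1 for the interaction, 0 to 0 for old against young rTg4510 and 1 to 1 for old rTg4510 against WT.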
